A study of Mus musculus with 8 samples.

Results

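The genes described are the integrins and laminins of the mouse, chosen by name alone: every probe whose gene name in the array files is an integrin alpha or beta chain or a laminin alpha, beta or gamma chain. The rule found 35 genes measured by 78 probes, of 41174 probes on the array. They comprise 17 integrin alpha, 8 integrin beta, 5 laminin alpha, 2 laminin beta and 3 laminin gamma genes. Of these, 30 could be tested among 17099 genes, 20 integrins and 10 laminins, since a probe of theirs was clearly brighter than background on 4 or more of the 8 arrays.

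The samples are whole mouse embryos at embryonic day 9.0, in 4 pools of Arid3b-null embryos and 4 pools of wild-type embryos, with 3 to 4 embryos in each pool. Arid3b encodes a DNA-binding protein with an AT-rich interaction domain. The comparison asks which transcripts differ in its absence. The labels name neither the null allele, the strain, the sex nor the litter of the embryos. P-values therefore measure the spread between these pools only. In RNA from whole embryos, fewer cells of a type and less RNA per cell cannot be told apart. Values below are log2 signals of 1-colour Agilent arrays relative to each array's 75th percentile, and differences are null minus wild type. A gene was called where limma's p-value, adjusted by Benjamini-Hochberg over all 17099 genes, was under 0.05.

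Each array had 60.0% to 64.1% of its probes well above background, and a 75th percentile of 1280 to 1703 signal units. With 4 pools a group, the number of arrays limits precision throughout. Pools 1 and 2 of each group shared slide 1, and pools 3 and 4 shared slide 2. Null pools lay at positions 3 and 4 of each slide and wild-type pools at positions 1 and 2, so position and genotype cannot be told apart. Arid3b itself was lower in all 4 null pools, by 1.35 ± 0.15 (SE, n = 4 pools per group; limma adjusted p = 0.00577). Its 3 probes kept 39.2%, 30.2% and 30.8% of the wild-type signal.

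Integrins are cell surface receptors made of an alpha and a beta chain, which bind proteins of the extracellular matrix and link them to the actin cytoskeleton. Laminins are secreted trimers of an alpha, a beta and a gamma chain that assemble into basement membranes, the thin matrix sheets under epithelia and around muscle, nerve and vessels. The alpha chain of a laminin largely sets which receptors bind it. In the embryo around this stage, laminins and their receptors line the neural tube, the somites, the gut, the surface ectoderm and the growing vessels.

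The laminin probes that follow are from genes at which the groups did not overlap, and their letters show which probes share sequence. The probe of Lama5, where the groups did not overlap either, is not shown. All are 60 bases long, and their positions are those of the array files on mm7. Both Lama2 probes have at least 1 reading frame without a stop codon and match different places, chr10:26736609-26736668 and chr10:26743094-26745104. The second of these spans 2011 bases of genome for its 60 bases.
Lama2, brightest probe: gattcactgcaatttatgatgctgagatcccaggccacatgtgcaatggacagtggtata
Lama2, second probe: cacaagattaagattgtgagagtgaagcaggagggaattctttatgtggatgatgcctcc

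The brightest Lama4 probe lies at chr10:38885787-38885846, and the second one spans chr10:38885025-38885815. Capitals mark the 29 bases that both Lama4 probes hold, so these 2 probes read partly the same stretch of transcript.
Lama4, brightest probe: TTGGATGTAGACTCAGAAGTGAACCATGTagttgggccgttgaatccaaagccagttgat
Lama4, second probe: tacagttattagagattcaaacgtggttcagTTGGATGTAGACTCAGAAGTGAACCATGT

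The Lamb2 probe was the only kept probe of its gene, and the array files place it on an unplaced contig of mm7, chrUn_random:65260-65319. In GRCm38 the gene lies on chromosome 9, the chromosome of the Arid3b probes. The Itga9 and Itga11 probes also lie on chromosome 9 of mm7, and those genes differed by 0.13 and 0.12 and were not called. Whether position on this chromosome bears on any difference was not tested.
Lamb2: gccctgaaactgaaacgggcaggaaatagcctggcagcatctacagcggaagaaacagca

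Upstream sequence is shown for the 2 called integrins, Itga8 and Itgb8, because Arid3b belongs to a family known for binding AT-rich DNA. Both are 200-base windows, from 250 to 51 bases before the start in the RefSeq promoter table for GRCm38.p6, on the minus strand. Itga8 is at chr2:12301995-12302194 and Itgb8 at chr12:119238327-119238526. Capitals mark ATTAA or its reverse complement TTAAT.
Itga8: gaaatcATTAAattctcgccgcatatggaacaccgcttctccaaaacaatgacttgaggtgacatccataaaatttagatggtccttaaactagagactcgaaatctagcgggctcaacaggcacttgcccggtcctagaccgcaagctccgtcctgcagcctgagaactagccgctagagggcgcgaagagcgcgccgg
Itgb8: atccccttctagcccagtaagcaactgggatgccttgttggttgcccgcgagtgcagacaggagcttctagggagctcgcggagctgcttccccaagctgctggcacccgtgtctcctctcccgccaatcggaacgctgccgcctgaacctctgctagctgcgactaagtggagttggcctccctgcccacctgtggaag
The Itga8 window held 1 ATTAA and no TTAAT, and the Itgb8 window held neither. GC content was 52.0% for Itga8 and 62.0% for Itgb8. Of 27025 promoters in the table, 22.5% held the motif on either strand in the same window. Among the 22 member genes with an entry, 2 (9.1%) did. A match describes the letters of this window only.

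Among the laminins 0 of 10 genes were called by limma, where 4.20% of all genes tested were. At an unadjusted p under 0.05 there were 4 of 10, where 20.7% of all genes were. Yet 8 of the 10 had a higher mean in null than in wild-type pools, against 48.7% of all genes. Their median difference was 0.23, where the median of all genes was -0.0068. Under another background correction (normexp) the laminin median was 0.03, where that of all genes was -0.07. Without wild-type pool 2 the laminin median was 0.15. In 4 of the 10, Lama2, Lama4, Lama5 and Lamb2, every null pool lay above every wild-type pool, against 8.08% of all genes. With the pool number as a block, these 4 genes were called higher in null pools, where 7.78% of all genes were. The labels do not say that pools of the same number are paired. Markers of some other tissues also had higher null means, and those of others did not. In the heart list (Myl7, Myh6, Myh7, Tnnt2, Nppa and Myl4) this held for all 6, with Nppa called higher and the groups not overlapping in 3. In the neural crest list and the surface epithelium list (Epcam, Cdh1, Krt8, Krt18, Cldn6 and Krt5) it held for all 6 genes each, with 0 called by limma. In the parietal and the visceral endoderm lists it held for 3 of 6 genes each, with median differences of 0.06 and 0.04. For the megakaryocyte and platelet list it held for 2 of 4 tested, and for the early neural tube list for 0 of 6. The summed signal of the heart list, in multiples of the array's 75th percentile, was 258 to 305 in null pools and 213 to 225 in wild-type pools. For the neural crest it was 6.29 to 7.58 in null pools and 5.92 to 6.71 in wild-type pools, and for the surface epithelium 98.0 to 121 in null pools and 77.5 to 98.5 in wild-type pools. Their part in the laminin differences was not tested.

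Lama2 encodes the alpha chain of the laminin that surrounds skeletal muscle fibres and Schwann cells. Its log2 signal was -2.66, -2.95, -2.83 and -3.28 in null pools 1 to 4, against -3.37, -3.77, -3.51 and -3.72 in wild-type pools 1 to 4. The groups did not overlap, and null pool 4 came closest to the wild-type range. The difference was 0.66 ± 0.15 (SE), a 1.58-fold higher signal in null pools, with limma's adjusted p = 0.0504, just over the threshold. With the pool number as a block the adjusted p was 0.0200, and with the slide as a block, where 4.71% of all genes were called higher, it was 0.0387. The second Lama2 probe printed above differed by 0.89 ± 0.17 (limma adjusted p = 0.0359 over all kept probes, of which 3.46% were called). That probe was dim, with a mean log2 signal of -5.08 against -3.26 for the brightest probe, though above background on 4 null and 4 wild-type arrays. Leaving out 1 pool gave a call in 1 of 8 fits, that without null pool 4, with limma adjusted p-values of 0.0277 to 0.142. Limma also called the gene where all 8 arrays had to be above background (0.0388) and with the mean of kept probes (0.0406). It did not with a median shift (0.113), with no shift (0.232), with no filter on dim probes (0.117) or in the deposited value table (0.104). Under normexp the difference was 0.13. Of the myotome markers, which mark early muscle, Myog, Myod1, Actc1, Chrna1 and Des were tested and Myf5 was not. These 5 had a median difference of -0.01, with 2 null means higher and 3 lower, down to -0.65, and 0 called by limma. Their summed signal, in which bright genes weigh most, was 23.1 to 25.3 in null pools and 21.3 to 22.9 in wild-type pools.

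Lama5 encodes the alpha chain found in most epithelial basement membranes of the embryo. Its only probe has a listed position of just 15 bases, chr2:180677286-180677300 on mm7. Its log2 signal was 2.46, 1.86, 2.55 and 1.93 in the null pools, against 1.72, 1.11, 1.74 and 1.54 in the wild-type pools. Pools 1 and 3 were the higher ones in both groups, and the 2 groups did not overlap. The difference was 0.67 ± 0.21, or 1.59-fold. Limma's adjusted p was 0.114, and it was 0.0214 with the pool number as a block.

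Lama4 encodes the alpha chain of vessel wall and mesenchymal laminins. Its log2 signal was 0.15, -0.12, -0.10 and -0.13 in the null pools, against -0.22, -0.40, -0.45 and -0.38 in the wild-type pools. The other 3 null pools lay close together, below null pool 1, and the groups did not overlap. The difference was 0.31 ± 0.09 with limma's adjusted p = 0.104, and 0.0278 with the pool number as a block. Its 3 kept probes gave differences of 0.31, 0.30 and 0.30, the first 2 from the overlapping sequences printed above. Endothelial markers had a median difference of 0.13 over 6 genes, with 0 called by limma, and a summed signal of 10.9 to 12.9 in null pools and 10.7 to 12.2 in wild-type pools.

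Lama1 and Lama3 were the laminin alpha chains with a lower null mean. Lama1, the alpha chain of the earliest embryonic basement membranes, differed by -0.04 ± 0.23 (adjusted p = 0.955 by limma). It held 0.44, -0.43, 0.38 and -0.12 in null pools, against 0.28, -0.34, 0.33 and 0.17 in wild-type pools. Pool 2 was the lowest in each group, and the groups overlapped throughout. Lama3, an alpha chain of stratified epithelia, was dim, above background on 3 null and 4 wild-type arrays. It differed by -0.18 ± 0.13 (limma adjusted p = 0.495), while its second kept probe differed by 0.04.

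Of the beta chains, Lamb2 belongs to laminins of the neuromuscular junction, kidney and vessels. Its log2 signal was 1.08, 0.63, 0.65 and 0.48 in null pools, against 0.46, 0.10, 0.30 and 0.13 in wild-type pools. The lowest null pool was just above the highest wild-type pool. The difference was 0.47 ± 0.14, or 1.38-fold, with limma's adjusted p = 0.116, and 0.0246 with the pool number as a block. Lamb3, a chain of epidermal laminin, differed by 0.26 ± 0.12 (limma adjusted p = 0.261), with 0.46 on slide 1 and 0.05 on slide 2.

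Lamb1, the beta chain of most embryonic laminins, falls outside the rule because the array files call it Lamb1-1. It is given because the family would otherwise lack it, and it is in none of the counts. It held 2.70, 2.35, 2.76 and 2.58 in null pools, against 2.27, 1.91, 2.33 and 2.25 in wild-type pools. The groups did not overlap. The difference was 0.41 ± 0.13 with limma's adjusted p = 0.117, and 0.0209 with the pool number as a block.

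Of the gamma chains, Lamc1 and Lamc3 were not called, and their groups overlapped. Lamc1, the gamma chain shared by most laminins, held 4.44, 3.91, 4.64 and 4.28 in null pools, against 4.24, 3.71, 4.33 and 4.16 in wild-type pools. Each null pool was above the wild-type pool of its number, but pool 2 of the null group lay below 3 wild-type pools. The difference was 0.21 ± 0.19 (limma adjusted p = 0.603). Lamc3, a chain of neural and vessel laminins, differed by 0.02 ± 0.31 (limma adjusted p = 0.983). Lamc3 was above background on 2 null and 3 wild-type arrays.

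**Figure D1:**
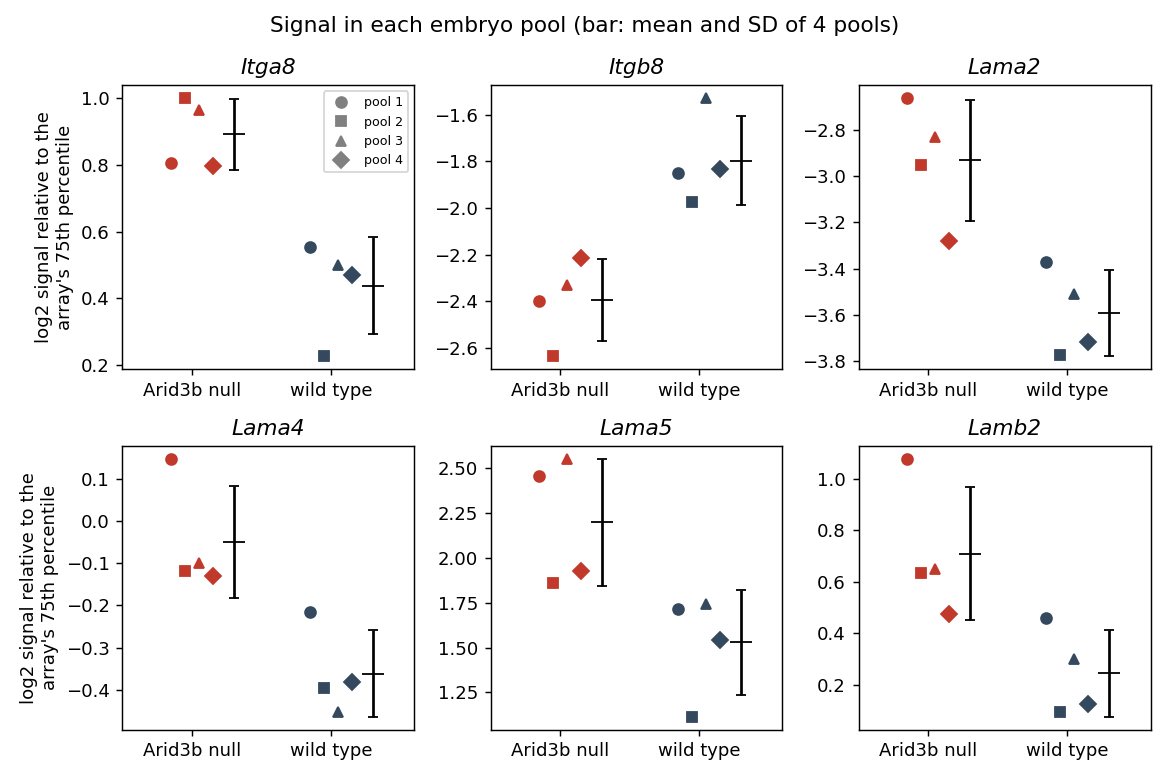
Log2 signal relative to the array's 75th percentile in each pool, null at left and wild type at right, for 2 integrins and 4 laminins; bars give the mean and SD of 4 pools and each panel has its own axis. The null pools lie above all wild-type pools in 5 panels and below them for Itgb8.

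Among the integrins, Itga8 was called higher in null pools and Itgb8 lower, and the other 18 of 20 genes were not called. Of all genes tested, 2.85% were called higher and 1.35% lower. At an unadjusted limma p under 0.05 there were 4 of 20 integrins, a share near the 20.7% of all genes. The null mean was above the wild-type mean for 16 of the 20, with a median difference of 0.13. Under another background correction (normexp) this median was -0.0030, where that of all genes was -0.07. Itga8 and Itgb8 were also the only integrins tested whose groups did not overlap, against 16.1% of all genes (8.08% with null pools higher and 8.06% with null pools lower). With the pool number as a block, 3 integrins (Itga8, Itgb5 and Itgb7) were called higher, against 7.78% of all genes, and Itgb8 was called lower, against 5.92%. In that fit 13.7% of all genes were called in either direction. With the slide as a block, Itga8, Itgb7 and Itgb8 were called, against 8.01% of all genes.

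Itga8 encodes an alpha chain that pairs with Itgb1 and binds nephronectin and other ligands with an Arg-Gly-Asp (RGD) motif. It is known for its role in kidney formation. The probe lies at chr2:12045993-12046052 on mm7. Its log2 signal was 0.80, 1.0, 0.96 and 0.80 in the null pools, against 0.56, 0.23, 0.50 and 0.47 in the wild-type pools. The groups did not overlap, and wild-type pool 2 was the lowest of all. The difference was 0.45 ± 0.10 (SE), or 1.37-fold, with limma's adjusted p = 0.0431. Its second kept probe gave the same difference, 0.45 ± 0.11, with an adjusted p = 0.0616 over all kept probes by limma. The call was lost in each of the 8 fits that left out 1 pool, at adjusted p-values of 0.0564 to 0.129. It was also lost with a median shift (limma adjusted p = 0.155), with no shift (0.294) and with no filter on dim probes (0.106). The same held in the deposited value table (0.0729), under normexp and with the Y-linked covariate (0.148). Limma kept the call with quantile normalization (0.0359) and with the mean of kept probes (0.0494).

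The partner chain and the ligand of Itga8 were not called. Itgb1, the beta chain shared by most matrix-binding integrins, differed by 0.16 ± 0.10 (limma adjusted p = 0.416). Npnt, the gene of nephronectin, was singled out for its role after its values were seen. It differed by 0.06 ± 0.08 (limma adjusted p = 0.778).

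Itgb8 encodes a beta chain that pairs with Itgav and is known for activating latent TGF-beta, including in the developing nervous system. The probe lies at chr12:116944827-116944886 on mm7. Its log2 signal was -2.40, -2.63, -2.33 and -2.22 in the null pools, against -1.85, -1.97, -1.53 and -1.84 in the wild-type pools. Every null pool was below every wild-type pool, and the differences within slide 1 and slide 2 were -0.60 and -0.59. Over all pools the difference was -0.60 ± 0.13 (SE), a signal 1.51-fold higher in wild type, with limma's adjusted p = 0.0419.

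The 3 kept probes of Itgb8 did not give the same direction. A second differed by -0.77 ± 0.21 (limma adjusted p = 0.0921 over all kept probes) and another by 0.08 ± 0.35 (limma adjusted p = 0.943). The probe at -0.77 was dim, with a mean log2 signal of -4.92, and above background on 2 null and 4 wild-type arrays. The probe at 0.08 had a mean of -3.99 and was above background on 4 null and 4 wild-type arrays. With the mean of the kept probes the difference was -0.43 and was not called by limma (adjusted p = 0.301). Leaving out 1 pool kept the call in 1 of 8 fits, that without null pool 4, with adjusted p-values of 0.0463 to 0.113.

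Markers of the early neural tube lay on the same side as Itgb8. All 6 (Sox1, Sox2, Pax6, Sox3, Hes5 and Nes) had a lower null mean, with Sox3 called lower, where 1.35% of all genes were. In 5 of them every null pool lay below every wild-type pool, as for 8.06% of all genes. Their summed signal was 38.9 to 39.6 in null pools and 44.7 to 51.5 in wild-type pools, with a median difference of -0.31. Their part in the Itgb8 difference was not tested. Itgav, the partner of Itgb8, differed by 0.18 ± 0.10 (95% interval -0.04 to 0.40, limma adjusted p = 0.350).

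The other chains that pair with Itgav or bind RGD ligands were not called. Itgb5, a vitronectin receptor chain, held 4.26, 4.41, 4.05 and 3.96 in null pools, against 3.91, 4.15, 3.66 and 3.79 in wild-type pools. Each null pool was above the wild-type pool of its number, and the groups overlapped. The difference was 0.29 ± 0.14 (limma adjusted p = 0.278, and 0.0399 with the pool number as a block). Itga5, the fibronectin receptor chain needed in early embryos, differed by 0.19 ± 0.10 (limma adjusted p = 0.337). Itgb3 differed by -0.06 ± 0.22, with -0.30 on slide 1 and 0.18 on slide 2.

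No receptor chain for laminin was called. The 4 such genes, Itga3, Itga6, Itga7 and Itgb4, all had higher null means, with differences of 0.08 to 0.13 at their brightest probes and 0 called by limma (0 at an unadjusted p under 0.05). Other kept probes differed by 0.19 and 0.48 for Itga6, by 0.07 and 0.23 for Itga3 and by 0.25 for Itgb4. The Itga6 probe at 0.48 and the Itga3 probe at 0.23 were dim, with mean log2 signals of -4.53 and -3.86. The 2 Itgb4 probes overlap, at chr11:116117288-116117347 and chr11:116117278-116117337 on mm7. The mean over kept probes gave 0.25 for Itga6 (limma adjusted p = 0.415). Itga6, whose partners are Itgb1 and Itgb4, held 3.09, 2.67, 3.04 and 2.99 in null pools, against 3.02, 2.71, 2.94 and 2.78 in wild-type pools. Pool 2 was lowest in both groups and the ranges overlapped almost fully. The difference was 0.08 ± 0.12 (95% interval -0.18 to 0.35, limma adjusted p = 0.756). The interval for Itga3 ran from -0.12 to 0.30 and that for Itgb4 from -0.12 to 0.38.

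**Figure D2:**
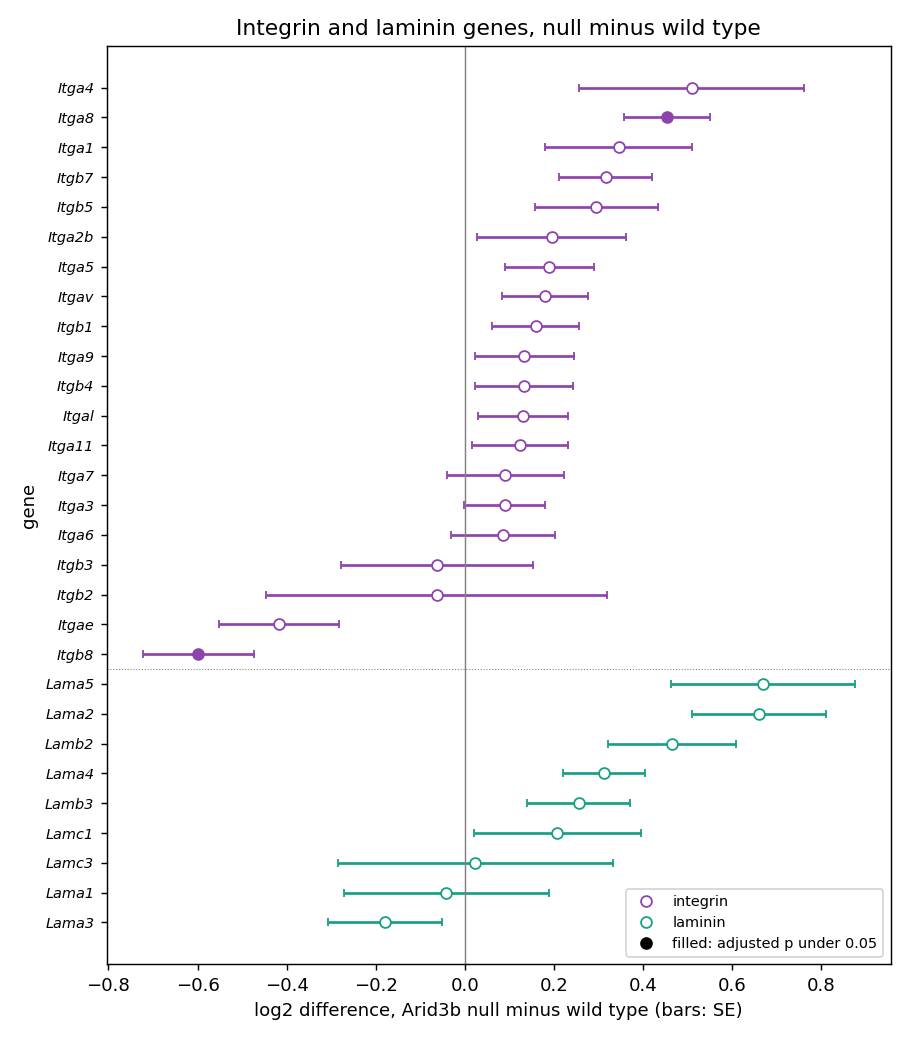
Log2 difference, null minus wild type, with its SE for integrins (upper part) and laminins (lower part); filled points were called. Itga8 at 0.45 and Itgb8 at -0.60 are the filled points, and most of the others lie above 0.

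Itga4, a receptor chain for fibronectin and Vcam1, had the highest integrin difference and a wide spread. It held -1.23, -2.22, -1.52 and -2.03 in null pools, against -1.86, -2.08, -2.57 and -2.53 in wild-type pools. Pools overlapped, and the difference of 0.51 ± 0.25 was not called (limma adjusted p = 0.305). The difference was 0.24 on slide 1 and 0.78 on slide 2, and the second kept probe differed by 0.02. Itga9, a chain with related ligands, differed by 0.13 ± 0.11.

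Of the collagen receptor chains, Itga1 differed by 0.35 ± 0.16 (limma adjusted p = 0.286), with a second probe at 0.32. Itga11 differed by 0.12 ± 0.11, with 0.26 on slide 1 and -0.01 on slide 2. Itga2 and Itga10 were not tested. Itga2 was above background on 1 null and 0 wild-type arrays, and Itga10 on none.

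Leukocyte and platelet chains were mostly dim. Itgae, which pairs with Itgb7 and binds E-cadherin, held -4.72, -4.54, -4.15 and -4.49 in null pools, against -4.25, -4.03, -4.07 and -3.88 in wild-type pools. The null mean was lower, with overlap through null pool 3, and the difference was -0.42 ± 0.14 (limma adjusted p = 0.128). Itgb7 held -2.78, -2.74, -2.89 and -2.99 in null pools, against -3.11, -2.96, -3.30 and -3.29 in wild-type pools. Null pool 4 lay below wild-type pool 2, and elsewhere the null values were higher. The difference was 0.32 ± 0.10 (limma adjusted p = 0.132, 0.0309 with the pool number as a block and 0.0324 with the slide as a block).

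Itgal differed by 0.13 ± 0.10, Itgb2 by -0.06 ± 0.38 and the platelet chain Itga2b by 0.19 ± 0.17, and limma called 0 of these 3. Itgam and Itgax, chains of macrophages and other myeloid cells, were above background on no array and were not tested, nor was Itgb6, an epithelial partner of Itgav. Among leukocyte markers, Ptprc, Spi1 and Tyrobp were likewise not tested, and the 3 that were had a summed signal of 0.147 to 0.204 in null pools and 0.170 to 0.234 in wild-type pools.

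**Figure D3:**
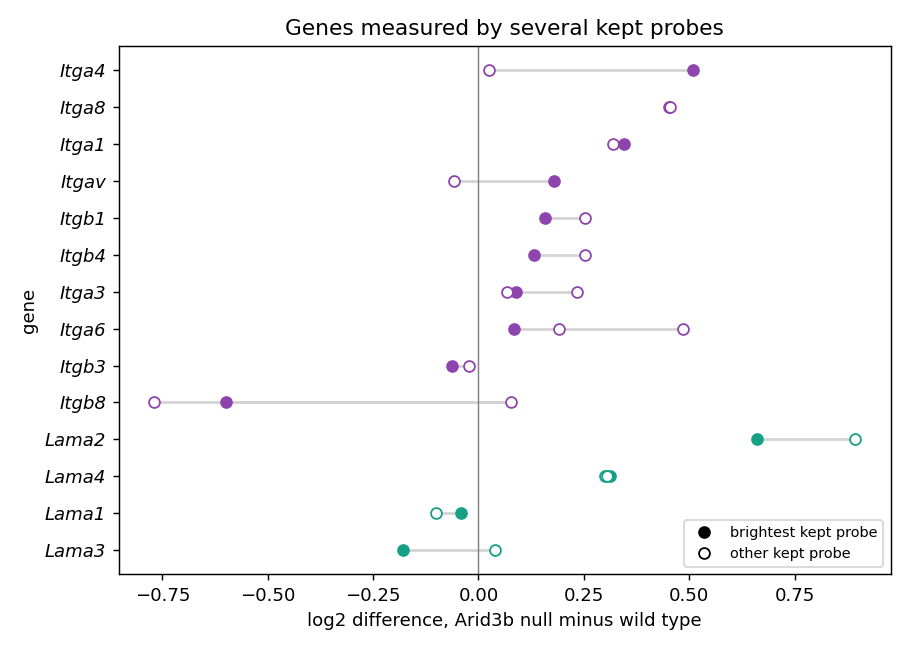
Log2 difference, null minus wild type, of each kept probe, for genes with several kept probes; filled points are the brightest probe of each gene. Itgb8, Itgav and Lama3 have probes on both sides of 0, and for each other gene drawn the probes lie on 1 side.

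Receptors and ligands were set side by side by their medians over genes in each pool, as deviations from each gene's mean over the 8 arrays. For the laminins these were 0.31, -0.12, 0.25 and 0.07 in null pools 1 to 4, against -0.01, -0.41, -0.01 and -0.08 in wild-type pools 1 to 4. For the integrins they were 0.12, -0.09, 0.13 and 0.09 in null pools, against -0.05, -0.12, 0.00 and -0.09 in wild-type pools. In both families the null pool was above the wild-type pool of its number for all 4 numbers, and pool 2 was lowest in each group. Null pool 2 lay below 3 of the 4 wild-type pools for the laminins. The larger median of the laminins, 0.23 against 0.13 for the integrins, is a description of these genes and was not tested.

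**Figure D4:**
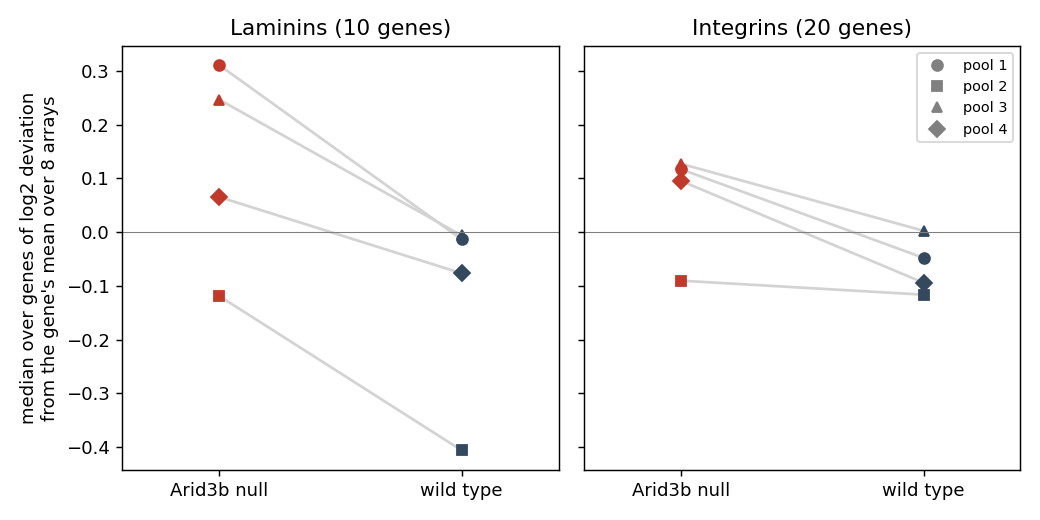
Median over genes of the log2 deviation from each gene's mean, per pool, for 10 laminins (left) and 20 integrins (right); lines join pools of the same number, null at left of each panel. Each of the 4 null pools lies above the wild-type pool of its number, for laminins in pool 1 at 0.31 in null and -0.01 in wild type, and pool 2 is lowest in both groups.

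Differences were also computed within each slide, with 2 pools per group. Of the 30 genes, 25 had the same sign on both slides, 18 of 20 integrins and 7 of 10 laminins, against 75.9% of all genes. The laminin median was 0.26 on slide 1 and 0.18 on slide 2, and the integrin median was 0.15 and 0.16. Lama2 differed by 0.76 and 0.56, Lama5 by 0.74 and 0.60, and Itga8 by 0.51 and 0.40 on slides 1 and 2.

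A few members differed between the slides in a fit with genotype and slide as terms. Slide 2 minus slide 1 was called for 4 of the 30 by limma, a share near the 12.4% of all genes. Itgb2, a leukocyte chain, was higher on slide 2 by 1.06 (limma adjusted p = 0.00024), Lamc3 by 0.79 (adjusted p = 0.010 by limma) and Itgb3 by 0.51 (adjusted p = 0.035 by limma). Itgb5 was lower on slide 2, at -0.32 (adjusted p = 0.043 by limma). These 4 genes were not called between genotypes in the fit without a block.

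**Figure D5:**
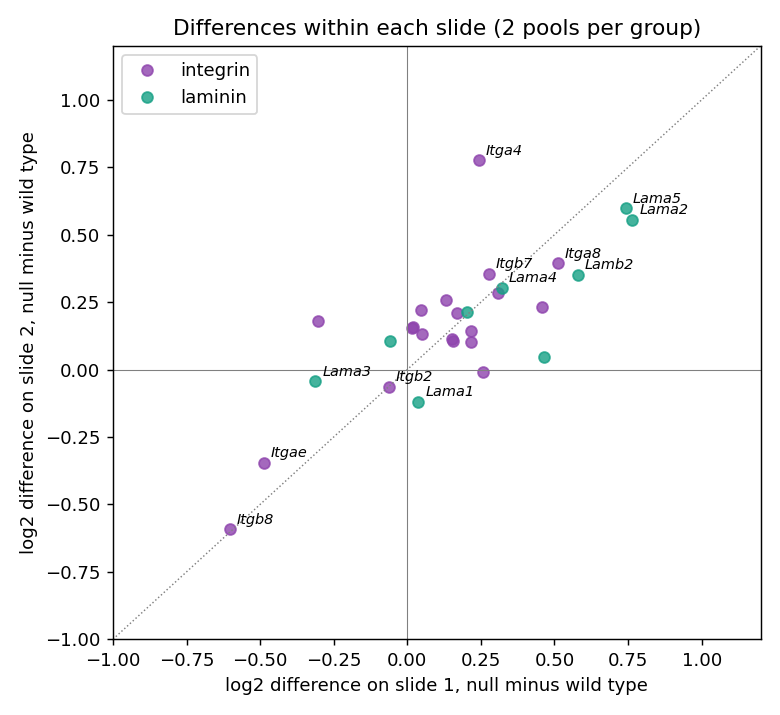
Log2 difference, null minus wild type, on slide 1 (x axis) and slide 2 (y axis) for tested integrins and laminins, with 2 pools per group on each slide; the dotted line marks equal values. Itgb8 lies on the line at -0.60 and -0.59, and Lama2 and Lama5 are at the upper right.

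Of the other components of the basement membrane, taken from a list, 2 of 15 tested were called higher, against 2.85% of all genes. All 15 had a higher null mean, against 48.7% of all genes, with a median difference of 0.33 and values down to 0.0049 (Smoc1). Col18a1, a basement membrane collagen that carries heparan sulphate chains, rose by 0.33 ± 0.07 (limma adjusted p = 0.0423). Nid2, a nidogen that bridges laminin and collagen networks, rose by 0.41 ± 0.09 (limma adjusted p = 0.0486). With the pool number as a block 9 of the 15 were called higher, against 7.78% of all genes.

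Among 24 tested ligands of integrins other than laminins, 2 were called higher and 0 lower, against 2.85% and 1.35% of all genes, with a median difference of 0.18. Edil3, a secreted RGD protein of early endothelium, held the largest change of the list. It rose by 1.04 ± 0.12, or 2.06-fold (limma adjusted p = 0.00707). Icam1, a ligand of Itgal with Itgb2, rose by 0.34 ± 0.08 (limma adjusted p = 0.0460).

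Of 12 laminin receptors other than integrins, limma called 0, with a median difference of 0.19, and 2 were called higher with the pool number as a block, against 7.78% of all genes. The smallest p was that of Sdc4, a syndecan, at 0.69 ± 0.17 (limma adjusted p = 0.0667, and 0.0238 with the pool number as a block). Of 23 focal adhesion genes, the cytoplasmic partners of integrins, 1 was called, a share near the 4.20% of all genes. Lims2, which binds the integrin-linked kinase, rose by 0.69 ± 0.12 (limma adjusted p = 0.0275), while the median of the list was 0.03.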

How the data were processed

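Total RNA of 4 null and 4 wild-type pools was read on 1-colour Agilent arrays. Per the file headers, Feature Extraction 9.5.3.1 gave each spot's processed intensity, after a fitted spatial background was subtracted and the array detrended, with no scaling between arrays, and 0 or 1 flags for spots above background or outlying. The deposited mean and background intensity served an alternative. The deposited value table holds log2 values for 27108 probes, with a scaling that the sources do not state; its column medians are 9.44 to 9.47, and its columns correlated at 0.988 or more with the log2 processed signal.

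Of 45018 spots, 1639 controls and 87 to 175 outliers per array were left out. Spots of a probe were averaged on the log2 scale and each array's 75th percentile was subtracted. Of 41174 probes, 25555 were well above background on at least 4 arrays. The brightest kept probe stood for a gene, with at least 2 values per group. Names were updated through RefSeq's GRCm38.p6 table for 22951 probes by accession, 6659 by symbol and 3109 by an older name; 8455 kept the file's name. Coordinates of probes are mm7, as in the files; exon annotation on that build was not used here.

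The null-wild type difference of each gene was fitted by lmFit and eBayes of limma 3.58.1 (R 4.3.3), with Benjamini-Hochberg adjustment over all genes. Signs were taken as null minus wild type. Same-numbered pools deviated together, with correlations of 0.557, 0.635, 0.523 and 0.426. They also shared a slide, so these correlations do not separate the slide from the pool number. The labels do not say that pools of the same number are paired. A fit with the pool number as a block is given where it changes a call. Other p-values come from the fit with genotype as the only term, unless another setting is named. The steps were tested on simulated data.

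Every member is counted, and the values of 1 member are not reported here. Values per array are given for called members, for the smallest p in each class and for others that a result turns on. Of each related list, up to 4 called genes are named, or the smallest p. The members and lists were chosen with earlier results of these data known.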

Additional observations from a re-analysis of the deposited data

Results flagged for a closer look

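Among the 60 sets of 4 pools examined (30 genes in 2 groups), 3 had a pool far from the other 3, where chance gives about 1 in 20. Itga3 was low in null pool 2, at 0.060 against 0.305 to 0.313 in the other null pools. Itga5 was low in wild-type pool 2, at -1.41 against -1.16 to -1.11. Lama4 was high in null pool 1, at 0.15 against -0.13 to -0.10. Without null pool 1 the Lama4 difference was 0.25.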

How the results depend on the processing

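Against 718 genes called, 204 were called with a median shift (52.0% of them higher, against 67.8%), 157 with no shift between arrays (79.6%), 164 with no filter on dim probes (83.5% of calls among 27670 genes), 462 in the deposited value table, 1370 with the slide as a block, 2343 with the replicate block, 9 with a covariate for Y-linked signal and 93 to 628 without 1 pool. By limma 0 were called with normexp (740 at an unadjusted p under 0.05), within slide 1 (1881) and within slide 2 (2861). Against 2 integrins called, 1 was called with a median shift and in the deposited table (Itgb8), and with the mean of all kept probes (Itga8). The count was 4 with the replicate block, and 0 to 1 without 1 pool. By limma 0 were called with no shift between arrays (4 at an unadjusted p under 0.05), normexp (1), no filter (4), within slide 1 (3), within slide 2 (6) and with the Y-linked covariate (4). Against 0 laminins called, 1 was called where all 8 arrays had to be above background, with the mean of kept probes and with the slide as a block, 4 with the replicate block, and 0 to 1 without 1 pool.

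The median difference of integrins was 0.06 where arrays were left unshifted, 0.04 with a median shift and -0.0030 with normexp, against 0.13. That of laminins was 0.14 with a median shift, 0.03 with normexp, 0.15 without wild-type pool 2 and 0.35 with the Y-linked covariate, against 0.23. The median of all genes moved as well, from -0.0068 to -0.08 with arrays unshifted, -0.10 with a median shift and -0.07 with normexp. It was -0.02 without wild-type pool 2 and -0.01 with the Y-linked covariate. Under normexp the 10th percentile of log2 signals was 9.12 in null pool 4 and 9.88 in wild-type pool 4, against 6.11 to 7.28 on the other arrays; its part in those values was not tested. Elsewhere the cause of a changed count was not tested. The call of Itga8 was lost in each fit without 1 pool and that of Itgb8 in all but the fit without null pool 4. The 5 members that were not tested, with Lama3 and Lamc3, are limited by signal close to background.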
